A study of Sus scrofa with 12 samples.

Results

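The peptide transporter genes SLC15A1 and SLC15A2 were examined in the mucosa of the pig jejunum, the stretch of small intestine where most nutrients are taken up. The members are all probe sets, groups of short probes designed against 1 transcript, that the annotation of the array assigns to either symbol. These are 2 of the 13755 named genes on the array and 5 of its 47845 probe sets, 2 for SLC15A1 and 3 for SLC15A2. The probe set of highest mean over all arrays gives the value of its gene. SLC15A2 was chosen because it was 12th of 5382 named genes with higher signal in high feed efficiency (FE) pigs, ranked by unadjusted p in these same data, so its difference between the groups is a description here and carries no test. The study contrasted pigs divergent in feed efficiency, that is, in growth for the feed eaten. One 1-colour Affymetrix Snowball array was made for each of 12 pigs aged 140 days, 6 labelled high feed efficiency (label 1) and 6 labelled low feed efficiency (label 2), and each group held 3 males and 3 females. The labels name no treatment and no pooling of animals. The pigs carry their own identifiers, and replicate numbers below only name them.

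Both genes code for transporters that carry short peptides across a membrane together with protons. SLC15A1 (PepT1) has low affinity and high capacity, lies in the brush border of enterocytes (the absorptive cells) and takes up the peptides that digestion leaves in the gut lumen, as well as peptide-like drugs such as beta-lactam antibiotics. SLC15A2 (PepT2) has high affinity and is best known from the kidney tubule, where it recovers filtered peptides, and from the choroid plexus. In rodents it has also been described in glial cells and macrophages of the enteric nervous system.

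Values are on a log2 scale, so that 1 unit doubles the signal, and levels of different probe sets are not compared because probes differ in response. Array medians ran from 4.02 to 4.16. The 12 negative control probe sets had means of 1.34 to 1.90, but 69 background probe sets graded by GC content had means of 1.26 at the low end and 7.66 at the high end, so the background of a probe set depends on its base composition, which is not known here. The high FE male numbered replicate 1 differed from the other pigs in array weight and in marker means. Its array weight, a measure of how well an array fits the model with FE and sex terms, was 0.402, against 0.698 to 1.64 for the other 11. The mean of 7 enterocyte markers (of 8 listed) was 8.18 in it, against 10.13 to 10.61 in the other high FE pigs and 9.53 to 10.91 in the low FE pigs. The mean of 3 gastric surface markers (GKN1, GKN2 and MUC5AC, of 4 listed) was 8.96 in it, against 3.66 to 5.48 in the other high FE pigs and 4.80 to 5.73 in the low FE pigs. Over all pigs the 7 enterocyte markers had means of 9.46 to 11.23. The differences of both genes, and those of the listed genes that this pig moved most, are given with and without it.

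In its main probe set SLC15A1 had nearly the same signal in 5 of the 6 high FE pigs and a far lower one in the remaining high FE pig. Low FE pigs had a wider range than those 5. In high FE pigs its main probe set (SNOWBALL_014083_st) read 6.80 in replicate 1, and the lowest, median and highest values of the group were 6.80, 9.75 and 9.83. In low FE pigs the lowest, median and highest values were 8.65, 9.80 and 10.18. The groups overlapped, and 5 of the 6 high FE pigs lay within 0.240 log2 units of each other, at 9.59 to 9.83. The high FE mean was 9.25 ± 1.21 and the low FE mean 9.61 ± 0.599 (SD, n = 6 each), a difference of -0.36 (SE 0.494). Without high FE replicate 1 the high group averaged 9.74 ± 0.0959 (SD, n = 5), and the fitted difference was 0.15 (SE 0.254), so the sign of the difference depends on that pig.

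The other SLC15A1 probe set (SNOWBALL_013992_st) was also far lower in high FE replicate 1. The other 5 high FE pigs were less alike in it, with a range of 0.91 log2 units against 0.240 in the main probe set. Its mean over the 12 pigs was 9.37, against 9.43 for the main probe set, so the choice between them was a narrow one. It read 6.69 in high FE replicate 1, and 8.97 to 9.88 in the other high FE pigs, against 8.82 to 10.21 in low FE pigs. Its mean was 9.06 ± 1.21 in high FE pigs, against 9.69 ± 0.526 in low FE pigs (SD, n = 6 each), a difference of -0.62 (SE 0.460), and -0.17 (SE 0.263) without high FE replicate 1. With that pig left out, the difference was thus positive for one probe set and negative for the other, each smaller than its standard error. Over the 12 pigs the pair of probe sets correlated at Pearson r = 0.956 (permutation p = 0.0003, adjusted p = 0.003 over the 10 pairs of member probe sets, two-sided, 100000 resamples) and Spearman rho = 0.79 (permutation p = 0.00289, adjusted p = 0.0289). Without the 2 pigs farthest from the median, r was 0.634 (permutation p = 0.048). Within the groups r was 0.973 in high FE pigs and 0.931 in low FE pigs (n = 6 each, exact permutation p = 0.0194 in both). The rho within groups was 0.657 in high FE pigs and 0.714 in low FE pigs (exact permutation p = 0.175 and 0.136).

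SLC15A2 had higher signal in high FE pigs. Its main probe set (SNOWBALL_015953_st) read 7.23 at the lowest, 7.64 at the median and 7.94 at the highest in high FE pigs, against 6.27, 6.68 and 7.59 in low FE pigs. All 6 high FE pigs lay above the low median, and 5 of the 6 low FE pigs lay below every high FE pig. The exception was the male numbered low FE replicate 1, at 7.59, where the other 5 low pigs lay at 6.27 to 6.84. The gene was chosen on this contrast, and how many probe sets of the table separate the groups this far was not counted. The high FE mean was 7.58 ± 0.252 and the low FE mean 6.77 ± 0.447 (SD, n = 6 each), a difference of 0.81 (SE 0.20) or 1.76-fold. These values lie largely within the range of the GC-graded background probe sets, as do those of the second probe set, so the share of background in the signal, which would alter the fold, is not known. Leaving out 1 pig at a time kept the difference between 0.69 and 0.98, and it was 0.81 (SE 0.223) without high FE replicate 1. With the spread of each array (the SD of all its probe sets) as a covariate it was 0.52 (SE 0.254). That spread was 2.14 to 2.27 in high and 2.22 to 2.28 in low FE arrays, and its part in the difference was not tested otherwise.

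The second SLC15A2 probe set (SNOWBALL_032312_st) ran in the same direction with more overlap. It read 6.76, 7.03 and 8.13 (lowest, median, highest) in high FE pigs, against 6.12, 6.75 and 7.27 in low FE pigs. Here 1 high FE pig, replicate 3 at 8.13, lay above all low pigs, and 3 low pigs lay below all high pigs, an overlap whose table-wide share was not counted either. The high FE mean was 7.18 ± 0.490 and the low FE mean 6.70 ± 0.432 (SD, n = 6 each), a difference of 0.47 (SE 0.208). It was 0.32 (SE 0.175) without high FE replicate 3 and 0.16 (SE 0.254) with array spread as a covariate. The third probe set (SNOWBALL_034744_st) had means of 1.92 ± 0.285 in high FE pigs and 1.66 ± 0.115 in low FE pigs (SD, n = 6 each), at the level of the negative controls. It did not pass the filter on low values, and in a fit without that filter its difference was 0.25 (SE 0.133). The first and second probe sets correlated at Pearson r = 0.621 over the 12 pigs (permutation p = 0.0242, adjusted p = 0.121) and Spearman rho = 0.72 (permutation p = 0.0105, adjusted p = 0.0525), which did not pass. Without the 2 pigs farthest from the median r was 0.676 (permutation p = 0.0248), and within groups it was 0.248 in high FE pigs and 0.6 in low FE pigs (n = 6 each, exact permutation p = 0.61 and 0.188).

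**Figure D1:**
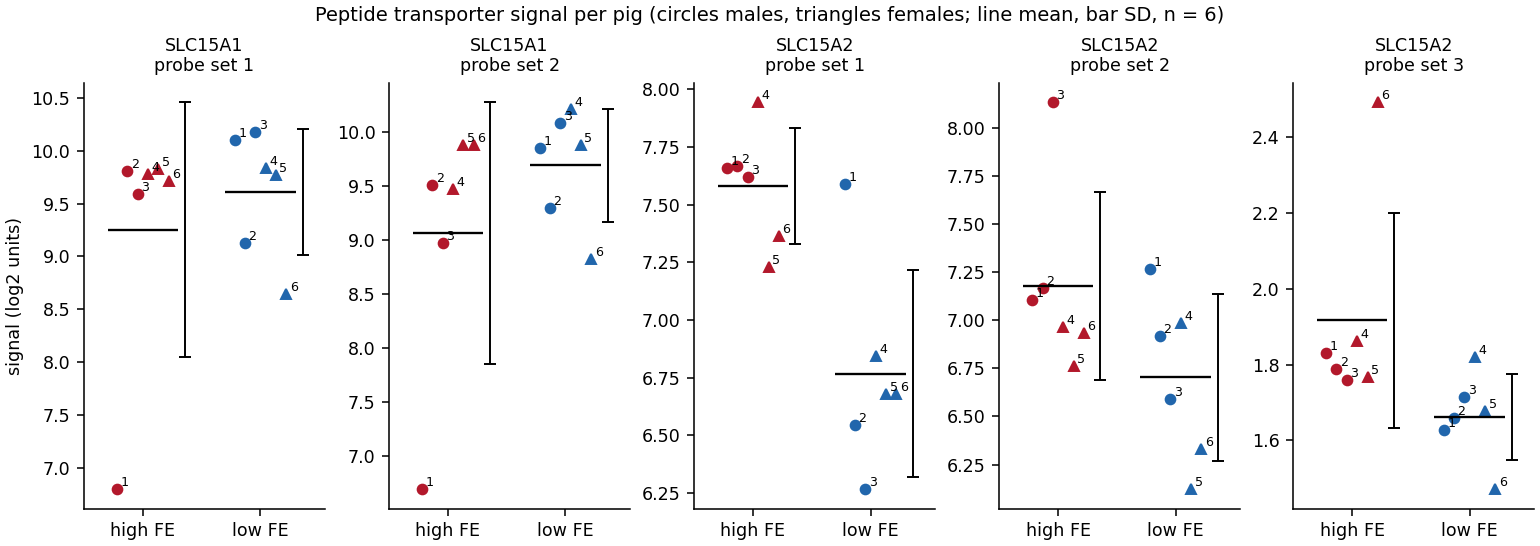
Log2 signal (vertical axis, a separate scale in each panel that does not start at 0) of the 5 probe sets in high FE (left, red) and low FE (right, blue) pigs. Circles are males, triangles females and numbers the replicates, lines are means and bars SD (n = 6). High FE replicate 1 lies at 6.80 and 6.69 for SLC15A1. For the first SLC15A2 probe set all high pigs but no low pig except replicate 1 lie above 7, a separation whose table-wide share was not counted.

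The fit behind these differences was limma, run on the 35791 probe sets whose mean passed the 25th percentile. For high against low FE 0 probe sets passed an adjusted p of 0.05 (0% of those tested), and 2789 had an unadjusted p under 0.05 (7.79%). The differences of SLC15A1 and SLC15A2 are therefore not calls. The plot of differences by setting shows how the pair behaved under each choice of processing. SLC15A2 stayed positive under all of them, from 0.51 to 0.98, the lowest being the mean of its 3 probe sets, which includes the one at the level of the negative controls. Because SLC15A2 was chosen on this contrast in these same arrays, its kept sign is no support for the difference. SLC15A1 ran from -0.61 without low FE replicate 6 to 0.15 without high FE replicate 1, and was -0.13 (SE 0.386) when arrays were weighted.

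**Figure D2:**
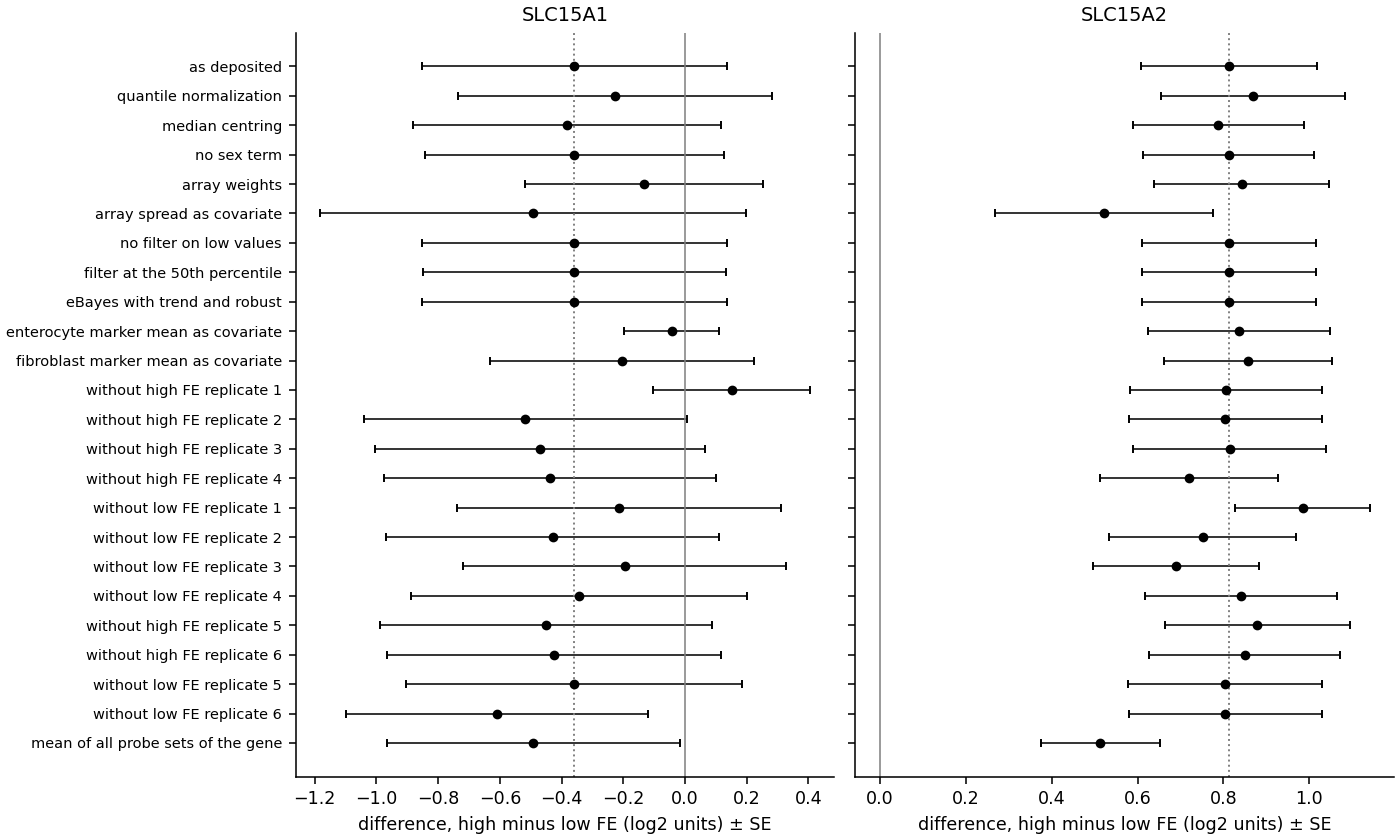
Difference, high minus low FE, in log2 units (horizontal axis, bars SE) of the main probe set of each gene under each setting, with the mean of all probe sets in the last line. The dotted line marks the value as deposited, -0.36 for SLC15A1 and 0.81 for SLC15A2; SLC15A2 stays above 0 in every line and SLC15A1 lies above 0 only without high FE replicate 1.

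Sex was compared next, a contrast that played no part in choosing the genes. Males averaged 9.27 ± 1.27 and females 9.60 ± 0.466 for SLC15A1 (SD, n = 6 each), a difference of -0.33 (SE 0.494, limma adjusted p 0.840), which turned to 0.18 without high FE replicate 1. SLC15A2 averaged 7.22 ± 0.641 in males and 7.12 ± 0.493 in females, a difference of 0.10 (SE 0.20, limma adjusted p 0.889), which turned to -0.070 without low FE replicate 1. The second SLC15A2 probe set was at 7.20 ± 0.517 in males and 6.68 ± 0.368 in females, a difference of 0.51 (SE 0.208, limma adjusted p 0.505, unadjusted p 0.0290), beside an adjusted p of 0.668 for the second SLC15A1 probe set, at 9.06 ± 1.23 in males and 9.69 ± 0.484 in females (difference -0.62, SE 0.460). Of the 4 member probe sets tested, 0 passed by limma, beside 6 of 35791 in the whole table (0.0168%), and 1 had an unadjusted p under 0.05, beside 9.26% of the table.

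The high minus low difference was then set side by side in the sexes. For SLC15A2 it was 0.85 (SE 0.301) in males and 0.78 (SE 0.301) in females. The male value was 0.40 (SE 0.379) with array spread as a covariate and 1.24 (SE 0.220) without low FE replicate 1. The 3 high FE males lay within 0.0469 log2 units of each other, at 7.62 to 7.67, while the 3 low FE males spread over 6.27 to 7.59. High FE females lay at 7.23 to 7.94 and low FE females at 6.68 to 6.84, a separation whose table-wide share was not counted. The interaction of FE and sex was 0.07 (SE 0.426, limma adjusted p 0.981). For SLC15A1 the difference was -1.07 (SE 0.666) in males and 0.36 (SE 0.666) in females, an interaction of -1.43 (SE 0.942, limma adjusted p 0.790) that was -0.46 (SE 0.517) without high FE replicate 1, one of the males. The male difference itself was -0.11 (SE 0.385) without that pig and 0.019 (SE 0.253) with the enterocyte mean as a covariate. In females the SLC15A1 difference turned to -0.029 without low FE replicate 6. No probe set of the table passed for the interaction by limma (0 of 35791, or 0%), and 2395 had an unadjusted p under 0.05 (6.69%), none of them a member.

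The main probe sets of SLC15A1 and SLC15A2 showed no relation that passed a test. Over the 12 pigs Pearson r was -0.144 (permutation p = 0.726, adjusted p = 0.807) and Spearman rho -0.126 (permutation p = 0.699, adjusted p = 0.874). Without high FE replicate 1 and low FE replicate 6, the pigs farthest from the SLC15A1 median, r was 0.0598 (permutation p = 0.88), and without high FE replicate 1 alone it was 0.247. Within the groups r was -0.161 in high FE pigs and 0.235 in low FE pigs (n = 6 each, exact permutation p = 0.658 and 0.653). High FE replicate 1, the array of lowest weight, ranked differently for the genes of the pair, which describes that pig only. It had the lowest SLC15A1 of all pigs, at 6.80, and an SLC15A2 of 7.66, inside the narrow range of the high FE males. The low FE males numbered replicates 1 and 3, by contrast, had the highest values of SLC15A1, at 10.10 and 10.18, and the highest and lowest SLC15A2 of their group, at 7.59 and 6.27. The second SLC15A1 probe set gave r = -0.328 with the first SLC15A2 probe set and -0.211 with the second (permutation, adjusted p = 0.807 for both). Without high FE replicate 1 and low FE replicate 6 these were -0.44 (permutation p = 0.203) and -0.652 (permutation p = 0.0412, not adjusted). With the third SLC15A2 probe set, at the level of the negative controls, r was 0.109, and 0.885 in low FE pigs (exact permutation p = 0.0153).

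**Figure D3:**
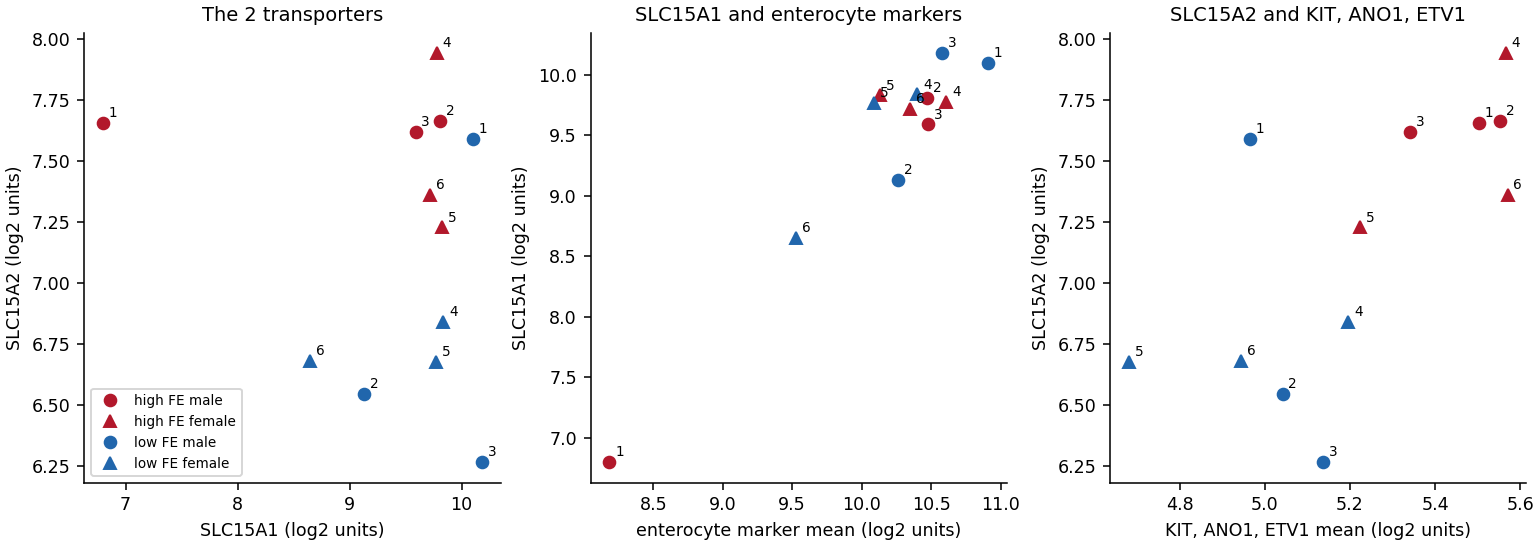
Main probe sets per pig in log2 units: SLC15A2 against SLC15A1 (left), SLC15A1 against the mean of 7 enterocyte markers (middle) and SLC15A2 against the mean of KIT, ANO1 and ETV1 (right). Red is high and blue low FE, circles are males, triangles females and numbers replicates; high FE replicate 1 lies alone at 6.80 for SLC15A1 and 8.18 for the enterocyte markers.

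Each gene was set against the means of 16 lists of cell type markers, 32 relations in all. SLC15A1 followed the enterocyte markers. Its r with their mean was 0.956 (permutation p = 0.00045, adjusted p = 0.00768) and Spearman rho 0.671 (permutation p = 0.02, adjusted p = 0.213). Each of the 7 markers correlated with it, from r = 0.713 for APOA4, an apolipoprotein, to 0.938 for MTTP, which loads lipid onto lipoproteins. Without high FE replicate 1 and low FE replicate 6, which had the lowest enterocyte means, r fell to 0.496 (permutation p = 0.14), so the pooled relation rests on those 2 pigs. In the low group alone r was 0.861 (n = 6, exact permutation p = 0.0222) and rho 0.886 (exact permutation p = 0.0333). In the high group r was 0.978 (n = 6, exact permutation p = 0.117), but rho was 0.143 (exact permutation p = 0.803). With the enterocyte mean as a covariate, a fit chosen after seeing the data, the high minus low difference was -0.04 (SE 0.155) for the main SLC15A1 probe set and -0.34 (SE 0.188) for the other one. In a piece of mucosa, fewer enterocytes and less SLC15A1 RNA per enterocyte cannot be told apart.

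The mean of the smooth muscle markers ran opposite to SLC15A1. Of the 5, MYH11 had a positive r (0.307) and the other 4 had r of -0.757 to -0.720. The mean of the list (ACTA2, MYH11, TAGLN, DES and ACTG2, of 6 listed) gave r = -0.779 (permutation p = 0.00048, adjusted p = 0.00768) and Spearman rho = -0.559 (permutation p = 0.0631, adjusted p = 0.317). Without high and low FE replicates 1 r was -0.701 (permutation p = 0.0261). Within groups r was -0.881 in high FE pigs and -0.851 in low FE pigs (n = 6 each, exact permutation p = 0.117 and 0.025). The rho within groups was -0.143 in high FE pigs and -0.943 in low FE pigs (exact permutation p = 0.803 and 0.0167). SLC15A2 had r = -0.42 with the same list (permutation p = 0.174, adjusted p = 0.348), which did not pass. Without high and low FE replicates 1 its r was -0.718 (permutation p = 0.0169), and it was -0.291 within high and -0.645 within low FE pigs. The enterocyte and smooth muscle lists were the ones that passed after adjustment for SLC15A1 by Pearson r. By Spearman rho none of the 32 relations passed. The gastric surface markers had r = -0.836 with SLC15A1 (permutation p = 0.0307, adjusted p = 0.196) and rho -0.329 (permutation p = 0.299, adjusted p = 0.563), and r was -0.135 without high FE replicates 1 and 4 (permutation p = 0.721).

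SLC15A2 did not follow the enterocyte markers, with r = -0.0321 over the 12 pigs (permutation p = 0.938, adjusted p = 0.965) and Spearman rho 0.266 (permutation p = 0.405, adjusted p = 0.682). Its highest r with any list was 0.678, with the 3 markers of interstitial cells of Cajal, the pacemaker cells of the gut wall (permutation p = 0.0173, adjusted p = 0.138), with Spearman rho 0.706 (permutation p = 0.0131, adjusted p = 0.21), and did not pass. Without the 2 pigs farthest from the marker median r was 0.685 (permutation p = 0.0343). The mean of this list was 5.22 to 5.57 in high and 4.68 to 5.20 in low FE pigs. How often a mean of 3 genes separates the groups in this way was not counted. All 3 markers were higher in the high group, as were 5382 of the 12579 named genes tested. SLC15A2 was chosen for being higher there too, so its r and rho with this list over the 12 pigs, and their p values, include the group difference. Among the 3, ETV1, a transcription factor, had r = 0.877 with SLC15A2, the receptor gene KIT 0.456 and the chloride channel gene ANO1 0.0184. Within groups the list gave r = 0.573 in high FE pigs and -0.143 in low FE pigs (n = 6 each, exact permutation p = 0.236 and 0.801). Its part in the SLC15A2 difference was not tested.

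Lists for enteric glia, neurons and macrophages, the surroundings in which SLC15A2 is known from rodent gut, gave no relation that passed. The enteric glia list (GFAP, S100B, SOX10 and ERBB3, 4 of 8 listed) had r = 0.044 (permutation p = 0.891, adjusted p = 0.965) and rho -0.0559 (permutation p = 0.869, adjusted p = 0.957). It averaged 5.66 ± 0.365 in high FE pigs and 5.55 ± 0.480 in low FE pigs (SD, n = 6 each). The neuron list (4 of 7) had r = -0.162 (permutation p = 0.617, adjusted p = 0.828) and rho -0.0699 (permutation p = 0.836, adjusted p = 0.955), and the macrophage list (CD163, AIF1, CD14, C1QA and MRC1, 5 of 8) had r = -0.572 (permutation p = 0.0543, adjusted p = 0.204) and rho -0.531 (permutation p = 0.0795, adjusted p = 0.317). T cell markers had r = -0.597 (permutation p = 0.0426, adjusted p = 0.204) and rho -0.706 (permutation p = 0.013, adjusted p = 0.21). All 5 T cell markers were lower on average in high FE pigs, where 5382 of the 12579 named genes tested were higher and most of the rest lower. SLC15A2 was chosen for being higher in high FE pigs, so its r and rho with T cell markers include the group difference. Without the 2 pigs farthest from each marker median, r of SLC15A2 was -0.545 for enteric glia, 0.0927 for neurons, -0.479 for macrophages, -0.474 for T cells and 0.412 for enterocytes, so the sign turned for glia, neurons and enterocytes. Within high and low FE pigs r was -0.55 and 0.106 for glia, -0.554 and -0.285 for neurons, -0.73 and -0.67 for macrophages, and -0.616 and -0.379 for T cells (n = 6 each).

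**Figure D4:**
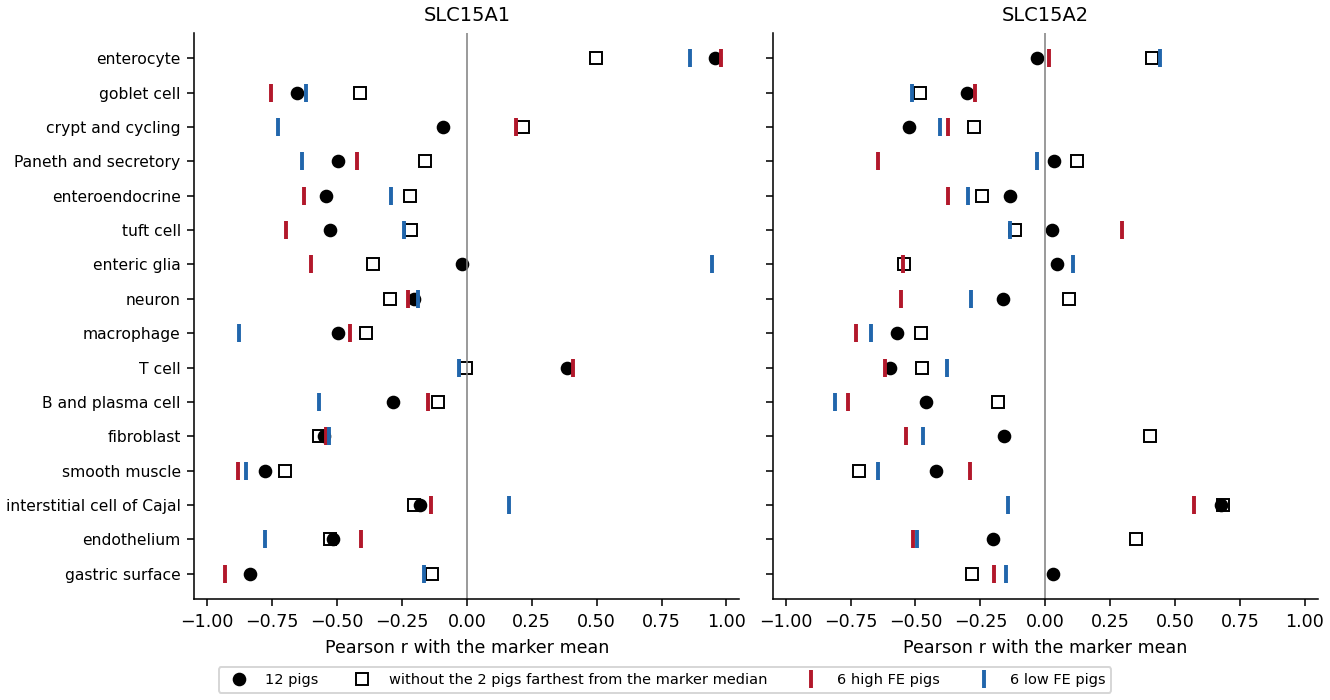
Pearson r (horizontal axis) of SLC15A1 (left) and SLC15A2 (right) with the mean of each cell type marker list (rows), over 12 pigs (filled circles), without the 2 pigs farthest from the marker median (open squares) and within the 6 high (red bars) and 6 low (blue bars) FE pigs. SLC15A1 reaches 0.956 with enterocyte markers and 0.496 without those 2 pigs, while SLC15A2 is at -0.0321 with them.

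Other genes of peptide and amino acid handling were taken from a list of 40 grouped by role, of which 33 were tested and 7 were not analysed here. None passed for FE in either direction by limma (0%, as in the whole table), and 2 had an unadjusted p under 0.05, both lower in high FE pigs, a side that held 3.98% of all probe sets. Of the 33, 22 had a negative and 11 a positive difference. Of the 12579 named genes tested, with 1 probe set each as in the list, 5382 had a positive difference. Over all probe sets tested, unnamed ones included, 51.6% were negative, which is a less alike background. The median was -0.10 for the list, against -0.01 over all probe sets. Without high FE replicate 1 the median was -0.03, against -0.01 over all, and 19 were negative. SLC15A5, a further member of the transporter family whose substrate is not settled, differed by -0.05 (SE 0.172), and by 0.042 without high FE replicate 1, at 2.71 in high FE pigs and 2.76 in low FE pigs, close to the filter on low values.

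Values without high FE replicate 1 are differences of group means. Among genes that keep up the proton and sodium gradients or anchor transporters, 2 of 4 were negative. SLC9A3, the sodium-proton exchanger of the brush border, differed by -0.21 (SE 0.188), the scaffold gene SLC9A3R1 by -0.31 (SE 0.156), the scaffold gene PDZK1 by 0.08 (SE 0.468) and the sodium pump subunit ATP1B1 by 0.05 (SE 0.165). PDZK1 was at 0.44 without high FE replicate 1, with ATP1B1 at 0.14, SLC9A3 at -0.13 and SLC9A3R1 at -0.22. Among 9 peptidases 7 were negative, and 5 without that pig, with a median of -0.15 over all pigs and -0.054 without it. ANPEP, the aminopeptidase that trims peptides at the brush border, read 11.59 ± 0.525 in high FE pigs and 12.22 ± 0.355 in low FE pigs (SD, n = 6 each), a difference of -0.62 (SE 0.239, limma adjusted p 0.630, unadjusted p 0.0228). DPP4, which removes dipeptides, differed by -0.39 (SE 0.293), the angiotensin-cleaving ENPEP by -0.70 (SE 0.514), and the cytosolic peptidases CNDP2, PEPD and LAP3 by -0.10 (SE 0.169), -0.21 (SE 0.228) and 0.33 (SE 0.258). MME, XPNPEP2 and ACE were at -0.02, -0.15 and 0.00. With the same pig left out, ANPEP was at -0.51, DPP4 at -0.18, ENPEP at -0.29 and MME at 0.49. ACE was then at 0.56, and the cytosolic CNDP2, PEPD and LAP3 at 0.046, -0.054 and 0.46. Most of these values moved when that pig was left out, those of MME and CNDP2 with a change of sign.

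Of 7 apical amino acid transporters 5 were negative. SLC3A1, a subunit of the carrier of cystine and basic amino acids, read 7.20 ± 0.462 in high FE pigs and 7.75 ± 0.192 in low FE pigs (SD, n = 6 each), a difference of -0.55 (SE 0.180, limma adjusted p 0.621, unadjusted p 0.00979). Its partner SLC7A9 differed by -0.42 (SE 0.241), the neutral amino acid carrier SLC6A19 by -0.56 (SE 0.515), the glutamate carrier SLC1A1 by -0.32 (SE 0.308), the proton-coupled SLC36A1 by -0.09 and SLC6A14 by 0.11. SLC6A20, a carrier of proline, differed by 1.39 (SE 0.746), with large spread in both groups and low FE values down to 1.26, below the negative control means. Leaving out high FE replicate 1 put SLC6A19 at -0.017, SLC7A9 at -0.21, SLC1A1 at -0.18, SLC36A1 at 0.034, SLC6A14 at -0.080, SLC3A1 at -0.49 and SLC6A20 at 1.37. The 7 basolateral carriers ran from -0.52 for SLC7A8 to 0.27 for SLC43A2, with SLC7A7 at -0.31 (SE 0.221), SLC3A2 at 0.03, SLC16A10 at -0.16, SLC43A1 at 0.06 and SLC38A2, near the filter on low values, at -0.01. The values without that pig were -0.18 for SLC7A7, -0.36 for SLC7A8, -0.035 for SLC16A10, -0.050 for SLC43A1, 0.41 for SLC43A2 and 0.0030 for SLC38A2. Transcription factors that have been linked to SLC15A1 differed by -0.13 for CDX2, 0.07 for SP1, -0.25 for PPARA, -0.07 for NFE2L2 and 0.03 for HNF4A. When it was left out, CDX2 was at -0.028, SP1 at 0.034, PPARA at -0.16 and NFE2L2 at -0.024. For sex, 0 of the 33 passed by limma (smallest adjusted p 0.480), with LAP3 (0.70) and PPARA (-0.39) at an unadjusted p under 0.05. For the interaction 0 passed by limma, with SLC9A3, DPP4 and SLC3A1 at an unadjusted p under 0.05.

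**Figure D5:**
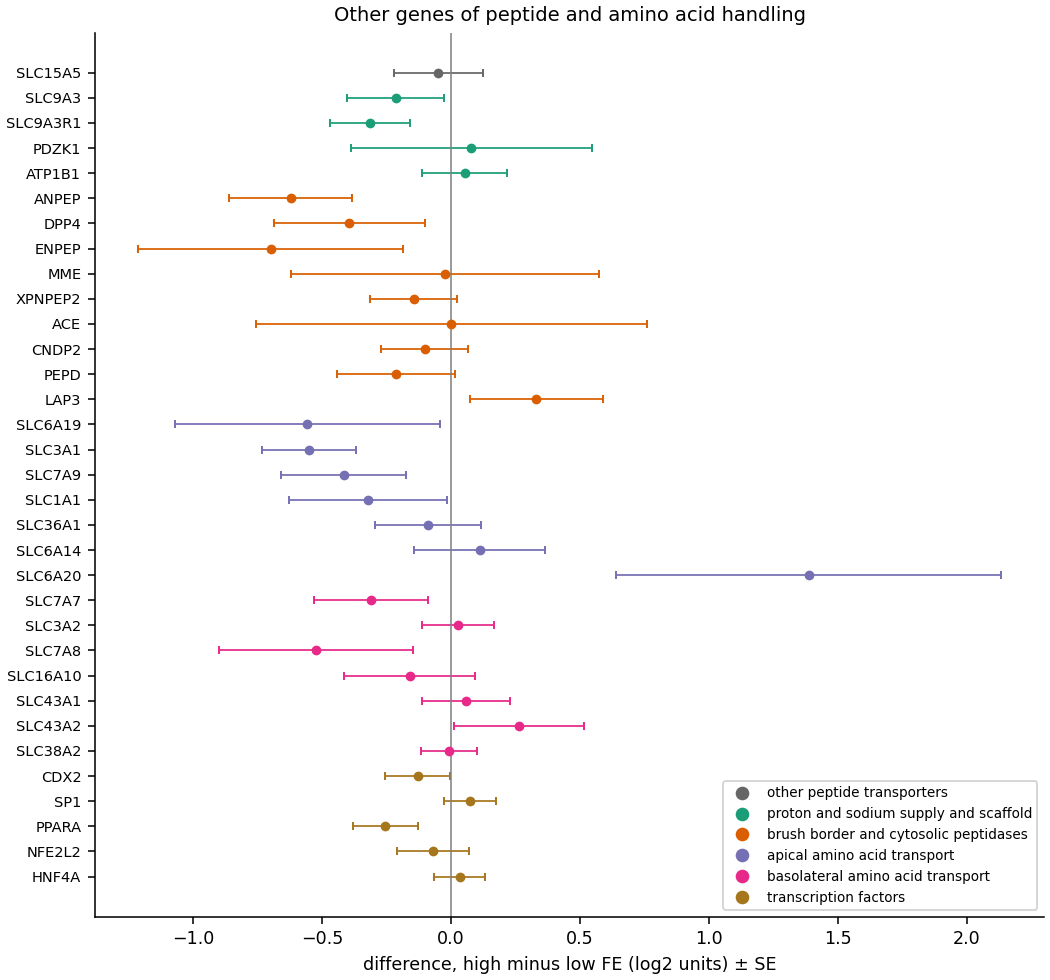
Difference, high minus low FE, in log2 units (horizontal axis, bars SE) of the 33 tested genes of peptide and amino acid handling, coloured by role. Values run from -0.70 for ENPEP to 1.39 for SLC6A20, and 22 of 33 lie below 0; without high FE replicate 1 (not drawn) ENPEP was at -0.29 and 19 of 33 lay below 0.

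Across pigs, these genes had mostly positive r with SLC15A1 and not with SLC15A2. The 33 had a median r of 0.584 with SLC15A1, against a median of -0.0713 over 12578 genes, and 0.435 without high FE replicate 1. For the 9 peptidases the median was 0.861, and 0.704 without that pig. With SLC15A2 the median over the 33 was -0.11, against -0.0799 over all genes. The pigs of these correlations are the same throughout, so the values describe these 12 arrays.

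The genes most like SLC15A1 over the 12 pigs were headed by SLC28A2, a sodium-coupled nucleoside transporter, at r = 0.988. SLC28A2 read 4.28 in high FE replicate 1, with 7.61 as the highest of that group, and 5.98 to 8.10 in low FE pigs. It also came first without that pig, at r = 0.958. Next were DNPEP, an aspartyl aminopeptidase (0.977), PGRMC1, a heme-binding membrane protein (0.967), ENPP3, an ectonucleotidase (0.958), SLC6A19 (0.947) and RHOA, a small GTPase (0.946). Without high FE replicate 1 these 5 had r of 0.880, 0.906, 0.841, 0.692 and 0.849, and SLC6A19 moved to place 235. The most opposite were CNNM2, linked to magnesium transport (-0.942), the calcium-binding protein gene S100A2 (-0.933) and the receptor gene NOTCH2 (-0.932), which were at -0.785, -0.740 and -0.701 without that pig. In all, 41 genes had r above 0.9 with SLC15A1, and 5 did without high FE replicate 1.

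The genes most like SLC15A2 formed a different group. They were PKIB, an inhibitor of protein kinase A (0.936), DNAI2, a dynein chain of cilia (0.923), NFXL1, a zinc finger gene (0.890), GUCY1A3, which codes for part of the nitric oxide-sensing guanylate cyclase (0.881), ETV1 (0.877) and CCDC149 (0.874). All 6 had higher means in high than in low FE pigs, from 3.70 against 3.50 for DNAI2 to 6.27 against 5.50 for GUCY1A3, so these r values include the group difference. After removing the means of the 4 groups of FE and sex, r was 0.838 for PKIB, 0.833 for DNAI2, 0.817 for NFXL1, 0.726 for GUCY1A3, 0.649 for ETV1 and 0.746 for CCDC149. Ranked by that r, they moved in the same order to places 27, 30, 37, 133, 324 and 102, so none stayed among the 6 nearest. The most opposite were BDKRB2, a bradykinin receptor, at -0.944, SERTAD1 at -0.912 and ATRIP, a DNA damage checkpoint gene, at -0.902, and after removing those means they were at -0.890, -0.798 and -0.913. BDKRB2 read 4.69 ± 0.176 in high FE pigs and 5.22 ± 0.387 in low FE pigs (SD, n = 6 each).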

How the data were processed

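Total RNA of jejunal mucosa was labelled with biotin and hybridized to 1-colour arrays, 1 per pig, per the labels' protocols. For each array the authors deposited a log2 value of every probe set, which was used unchanged. GCOS 1.1.1 appears in the submitters' processing notes. Background correction, summarization and normalization, not given in the sources used here, can each shift a difference between groups. After 123 control probe sets were left out, 47722 remained, of which 26426 had 1 gene symbol, and 35791 with a mean above the 25th percentile (2.29) were tested. Symbols were updated through unique synonyms of the RefSeq table of assembly Sscrofa11.1 (264 symbols); no coordinates or sequences are given.

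High against low FE (with sex as a term), sex and their interaction were tested by limma (version 3.58.1, R 4.3.3), with Benjamini-Hochberg adjustment over all probe sets tested. Permutation tests of correlations used 100000 resamples, or all 720 pairings within a group, two-sided. Fits and tests were tested on simulated data. The members and lists were chosen with earlier results of these data known. Genes named are the members, every tested gene of the peptide list, and the 6 most and 3 least alike by r; marker genes are named as examples. Each array is a pig with its own identifier, and p-values measure the spread between these pigs. Arrays have no read depth, and their number limits precision: the median SE of a difference was 0.169.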

Additional observations from a re-analysis of the deposited data

Results flagged for a closer look

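In groups of 6 pigs, a pig was singled out where its gap to the next value took up most of the range of its group (Dixon's test). Of 108 groups examined 15 were singled out, where chance gives about 1 in 20, and 10 of the 15 were high FE replicate 1. In that pig SLC15A1 read 6.80 (next 9.59) and 6.69 (next 8.97) in its 2 probe sets. Lowest of its group there were also the enterocyte marker mean at 8.18 (next 10.13), ATP1B1 at 9.71 (next 10.16), ENPEP at 7.68 (next 9.75), CNDP2 at 7.80 (next 8.54), SLC6A19 at 5.42 (next 8.30) and CDX2 at 7.19 (next 7.73). Highest there were the gastric surface marker mean at 8.96 (next 5.48) and SLC43A1 at 4.18 (next 3.66).

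The other 5 lay in other pigs. SLC15A2 read 8.13 in its second probe set in high FE replicate 3 (next 7.17), a pig at 7.62 in the main probe set. The third SLC15A2 probe set read 2.49 in high FE replicate 6 (next 1.86). SLC38A2 was at 2.54 in high FE replicate 2 (next 2.30), the endothelium marker mean at 5.97 in high FE replicate 4 (next 6.30), and the B and plasma cell marker mean at 6.24 in low FE replicate 1 (next 7.15). For the 4 member probe sets and the 33 list genes tested, no test of the interaction with sex passed.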

How the results depend on the processing

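The high minus low difference of the main SLC15A2 probe set kept its sign under every alternative and without each pig in turn (0.69 to 0.98). It was 0.52 under array spread as a covariate, where the second probe set was at 0.16 (SE 0.254). For the mean of the SLC15A2 probe sets it was 0.51. The gene was chosen on this contrast in these same arrays, so the kept sign is no support for the difference. The high minus low difference of SLC15A1 ran from -0.61 to 0.15 without 1 pig, positive only without high FE replicate 1. Probe sets called stayed at 0 for FE and the interaction and at 4 to 7 for sex. The sex difference of SLC15A1 turned to 0.019 with array weights and ran from -0.58 to 0.18, positive without high FE replicate 1 (adjusted p 0.453 to 1.00 over all alternatives); its interaction turned to 0.115 with the enterocyte covariate, chosen after seeing the data, and ran from -1.965 to -0.46 (0.521 to 0.977). The sex difference of SLC15A2 turned to -0.15 with array spread and ran from -0.070 (without low FE replicate 1) to 0.22 (0.704 to 1.00); its interaction turned to -0.18 with array spread and -0.017 for the mean of its probe sets, and ran from -0.20 to 0.465 without 1 pig, below 0 without low FE replicates 2 or 3 or high FE replicates 5 or 6 (0.772 to 0.999). The correlation of the pair turned to 0.0807 after removing group and sex means and 0.0598 without the 2 farthest pigs, and ran from -0.237 to 0.247 without 1 pig. None of these passed, and the causes of the sign changes were not tested. No paired analysis was possible because the labels give the pigs no shared replicate numbers. The third SLC15A2 probe set lies at the level of the negative controls, which limits what its values show.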

Other observations

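SLC6A20 had the largest difference of the peptide list. It read 2.52, 4.49 and 6.43 (lowest, median, highest) in high FE pigs, against 1.26, 2.72 and 6.49 in low FE pigs, and the groups overlapped. The lowest low FE value was below the negative control means of 1.34 to 1.90, and the low FE median was close to the filter on low values. That limits what its difference shows. Its r with SLC15A2 was 0.755 over the 12 pigs and 0.752 without high FE replicate 1, while with SLC15A1 it was -0.0446. SLC6A20 and SLC15A2 both averaged higher in high FE pigs, so this r with SLC15A2 includes the group difference.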
